A study of Homo sapiens with 6 samples.

Results

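Transcripts of the interleukin-6 (IL6) family and of the colony-stimulating factors were followed in U87 cells, an established human glioma line, after knockdown of PCGF1. The group holds 10 genes: the ligands IL6, LIF, IL11, CSF1, CSF2 and CSF3, the receptor subunits IL6ST, LIFR and OSMR, and the feedback inhibitor SOCS3. They were chosen by family and with the difference between knockdown and control arrays already known, so their values in that comparison are a description and are given without a p-value. Probe sets were taken where the platform annotation gives exactly 1 gene symbol and that symbol is in the group. This gave 34 probe sets for 9 of the 10 genes, out of 49293 probe sets and 18132 genes in all, and CSF2 was not analysed here.

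Total RNA was hybridised to 6 Affymetrix arrays, 3 from U87 cells treated with a lentivirus for an shRNA to PCGF1 (labelled PCGF1-shRNA, T0) and 3 from U87 cells treated with a negative control virus (labelled NC, T1). Both groups were kept in DMEM containing 10% serum. The labels call the arrays of each group biological replicates, numbered 1 to 3, and do not describe how their cultures were separated. Errors and p-values reflect how far these arrays differ. T0 and T1 are not explained and cannot be told apart from the knockdown. PCGF1 is a RING finger subunit of a repressive Polycomb complex. Its own log2 signal was -0.27, -0.13 and -0.19 in the knockdown arrays against 0.13, 0.27 and 0.29 in the control arrays, or 74.3% of the control level (log2 difference -0.43 ± 0.06, SE, n = 3 per group, limma adjusted p = 0.00410). This rests on 1 probe set, whose signal over background is unknown.

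Cytokines of the IL6 family are secreted helical proteins that signal through the shared receptor subunit gp130, which IL6ST encodes. IL6 and IL11 first bind a receptor of their own, whereas LIF joins gp130 to the LIF receptor and oncostatin M joins it to the LIF or oncostatin M receptor. The receptor-bound JAK kinases then activate STAT3, which induces SOCS3, and SOCS3 shuts the receptor down. The colony-stimulating factors drive growth of granulocytes (CSF3), of macrophages (CSF1) or of both (CSF2), and glioma cells are known to secrete several of these ligands.

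Each log2 signal is given as its distance from that probe set's 6-array median, so it shows a difference between arrays and not how abundant a transcript is. A gene was called when limma, fitted on all 18132 genes, gave an adjusted p under 0.05. The labelled cell type could not be checked against markers, because centred values hold no level. The markers of other cell types were compared as differences: 1 of 9 leukocyte, 0 of 6 endothelial and 0 of 6 epithelial markers were called, and 2 of 5 fibroblast and pericyte markers were. Of all 18132 genes, 4.63% were called lower and 6.36% higher. The called leukocyte marker was LYZ, at -0.19. LUM and PDGFRB, at 0.45 and 0.28, were the called fibroblast markers, while FAP at 0.12, PDGFRA at -0.04 and DCN at -0.02 were not called. The summed values of the fibroblast list were 0.286 to 0.558 in knockdown arrays and -0.495 to -0.263 in control arrays. The sums also did not overlap for the leukocyte list, at -0.277 to 0.00831 in knockdown and 0.0418 to 0.155 in control arrays. The same held for the endothelial list, at -0.379 to -0.0988 in knockdown and 0.00106 to 0.474 in control arrays. Taken gene by gene, the groups did not overlap for 11.1% of leukocyte, 33.3% of endothelial and 60% of fibroblast markers. They overlapped for every epithelial and glial marker, and did not overlap for 32.7% of all genes. The epithelial sums (-0.306 to 0.484 and -0.278 to 0.126) and the glial sums (-0.422 to -0.128 and -0.180 to 0.512) overlapped. Of 6 glial and glioma markers 0 were called by limma. At an unadjusted limma p under 0.05, 3 fibroblast, 1 leukocyte, 1 endothelial, 1 epithelial and 0 glial markers passed. Of all 18132 genes, 4816 passed at that level. The 3' minus 5' signal of the GAPDH control probe sets was -0.00767 to 0.0438 in knockdown and -0.0143 to 0.00975 in control arrays. For the beta-actin control it was 0.00643 to 0.106 in knockdown and -0.0710 to 0.0375 in control arrays. The part of these differences in the results on the cytokines was not tested.

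Of the 9 genes, the ligands CSF3, LIF and IL6 were called lower in the knockdown arrays, and the receptor gene LIFR was called higher. CSF3 was at 50.7% of its control level, LIF at 64.6%, IL6 at 74.4% as an average of disagreeing probe sets, and LIFR at 131%. IL11, CSF1, IL6ST, OSMR and SOCS3 were not called. Among all genes tested, 4.63% were called lower and 6.36% higher. The knockdown and control arrays did not overlap for 5 of the 9 genes, the called ones and SOCS3, against 32.7% of all genes. The median difference was -0.11 over the 9 genes and -0.01 over all genes. The plot of gene averages by array shows the separation of the called genes and the wide scatter of IL6ST. Fewer cells that make a transcript and less of it per cell cannot be told apart in such bulk RNA.

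**Figure D1:**
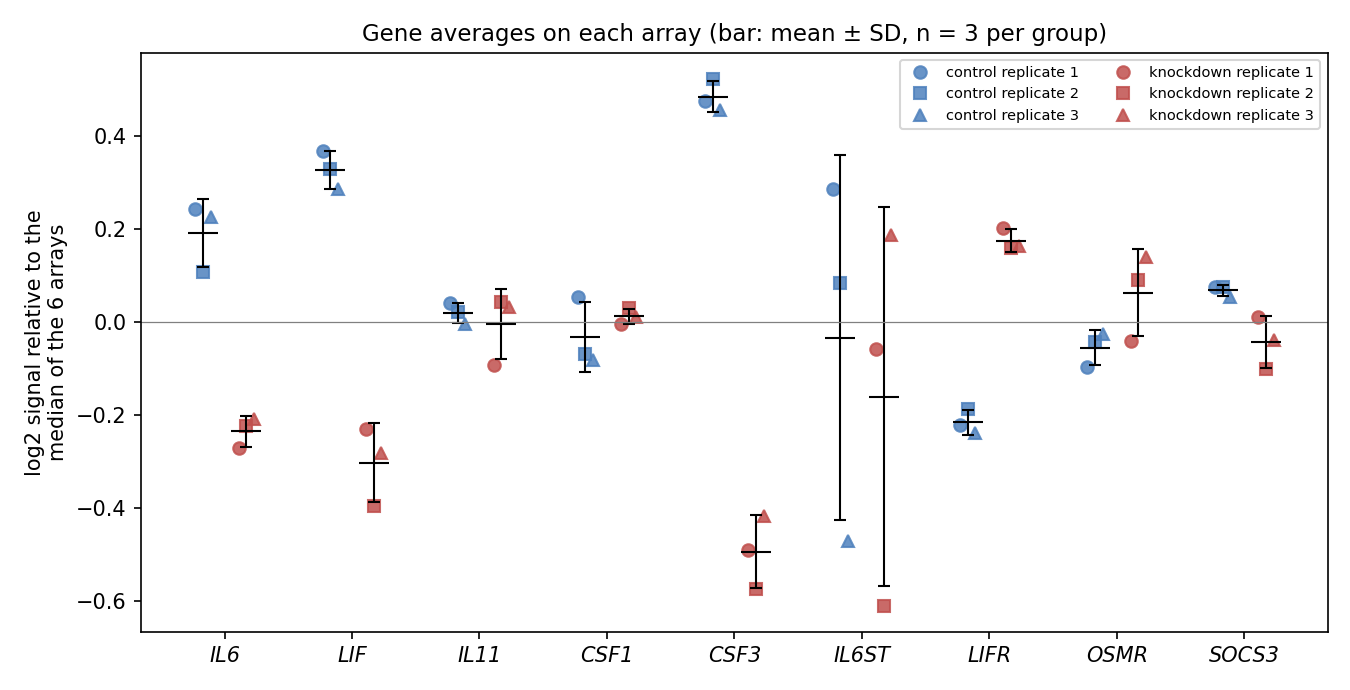
Log2 signal, as distance from the 6-array median (vertical axis), for the 9 measured genes, averaged over their probe sets, with 1 point per array and the mean ± SD of each group (n = 3). The control arrays lie above all knockdown arrays for IL6, LIF, CSF3 and SOCS3 and below them for LIFR, and the IL6ST points spread from -0.61 to 0.29 with no separation of the groups.

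The sequence upstream of IL6, a ligand called lower by its gene average and in 1 of its 2 probe sets, is shown beside that of IL11, which was not called. Both ligands signal through gp130 after binding a receptor of their own. The bases are the 250 before the transcription start in the RefSeq promoter table (GRCh38.p14), and capitals mark matches to the 4 motifs searched. The IL6 window is chr7:22726950-22727199 on the plus strand and the IL11 window is chr19:55370464-55370713 on the minus strand.
IL6: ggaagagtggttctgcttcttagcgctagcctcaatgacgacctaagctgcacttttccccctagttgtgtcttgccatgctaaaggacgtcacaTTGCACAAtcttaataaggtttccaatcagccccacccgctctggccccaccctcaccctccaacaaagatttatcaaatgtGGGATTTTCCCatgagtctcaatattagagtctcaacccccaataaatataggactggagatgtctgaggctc
IL11: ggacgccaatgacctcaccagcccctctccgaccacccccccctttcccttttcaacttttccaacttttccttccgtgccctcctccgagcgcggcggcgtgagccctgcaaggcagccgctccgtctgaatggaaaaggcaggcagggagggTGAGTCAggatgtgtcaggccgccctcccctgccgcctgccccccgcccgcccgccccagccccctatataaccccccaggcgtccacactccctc
The motifs, searched on both strands, were GGGANNNNCC for NF-kB, TGANTCA for AP-1, TTGCNNAA for C/EBP and TTCNNNGAA for STAT factors. Of the 35116 promoter windows of the table, 22.6%, 6.57%, 9.05% and 6.57% hold these motifs. The IL6 window held the NF-kB motif, on both strands in overlapping matches that span the 73rd to the 63rd base before the start, and the C/EBP motif from the 155th to the 148th base. The IL11 window held the AP-1 motif, from the 96th to the 90th base. Promoter windows of 7 members were in the table, 10 in all since LIFR has 3 and SOCS3 has 2. Windows of CSF3, LIF and CSF1 were missing, so IL6 was the only ligand called lower that could be shown. The STAT motif was found in 2 of the 3 LIFR windows and in 0 of the 2 SOCS3 windows. LIFR held C/EBP in 1 window. The OSMR window, of a gene that was not called, held the same NF-kB and C/EBP motifs as IL6, the IL6ST window held NF-kB, and the CSF2 window held NF-kB and STAT. A match is a run of letters and not evidence of binding.

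CSF3 encodes granulocyte colony-stimulating factor, which drives neutrophil production and release. Its gene average was -0.49, -0.58 and -0.42 in knockdown replicates 1 to 3 and 0.47, 0.52 and 0.46 in control replicates 1 to 3. Every control array was therefore above every knockdown array, and the within-group SD was 0.06. The difference was -0.98 ± 0.05 (log2, SE, 95% interval -1.09 to -0.87), which is 1.97-fold lower and the 5th most negative of the 18132 genes. Its 3 probe sets were at -1.14, -0.94 and -0.86, and the groups did not overlap in any of them. All 3 were called lower, where 2.94% of all probe sets were.

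LIF encodes leukaemia inhibitory factor, which keeps several kinds of stem cell undifferentiated and acts through LIFR and gp130. Its gene average was -0.23, -0.40 and -0.28 in the knockdown arrays and 0.37, 0.33 and 0.28 in the control arrays, again with no overlap. The difference was -0.63 ± 0.05 (log2, SE, 95% interval -0.75 to -0.51), 1.55-fold lower. The 3 LIF probe sets were at -0.81, -0.60 and -0.48, and all were called lower. The probe set at -0.48, 11726497_at, had the widest scatter, with knockdown values of -0.34 to -0.09 and control values of 0.09 to 0.46 that only just stayed apart.

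IL6 encodes interleukin-6 itself, a cytokine of the acute-phase response. Its 2 probe sets disagreed. The probe set 11746463_a_at was at -0.49, -0.43 and -0.51 in the knockdown arrays and at 0.46, 0.67 and 0.43 in the control arrays, a difference of -0.99 ± 0.07 (log2, SE) or 50.2% of control (95% interval 44.9 to 56.2%). The probe set 11760425_a_at was at -0.06, -0.02 and 0.09 in the knockdown arrays and at 0.02, -0.45 and 0.02 in the control arrays. Its difference was 0.14 ± 0.12 (log2, SE), the groups overlapped, and control replicate 2 lay far below the other 5 arrays.

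The IL6 gene average of -0.43 ± 0.05 (log2, SE, 95% interval -0.54 to -0.32) thus joins a probe set that was as low as the CSF3 probe sets and a probe set that was not called. Set in order, CSF3 had the most negative gene average, and its 95% interval did not meet that of LIF, while the intervals of LIF and IL6 overlapped. On 11746463_a_at alone the IL6 difference, -1.16 to -0.83, overlapped the CSF3 interval instead. Among the ligands called lower, CSF3 and LIF were lower in every probe set and IL6 in 1 of 2.

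IL11 and CSF1 were not called. IL11, a gp130 ligand that acts on stroma and on blood platelet precursors, was at -0.09, 0.04 and 0.03 in the knockdown arrays and at 0.04, 0.02 and 0.00 in the control arrays. Its difference was -0.02 (95% interval -0.13 to 0.09), and its 3 probe sets lay between -0.07 and 0.04. CSF1, the macrophage colony-stimulating factor, was at 0.00, 0.03 and 0.01 against 0.05, -0.07 and -0.08, a difference of 0.04 (95% interval -0.06 to 0.15). The intervals correspond to 91.1 to 106% of control for IL11 and 95.7 to 111% for CSF1, so changes in measured signal of the size seen for LIF or CSF3 lay outside them. Whether the IL11 and CSF1 probe sets rose above background is unknown, so a change in the transcripts is not excluded. The 3 CSF1 probe sets ranged from -0.03 to 0.09, and those of both genes were all uncalled.

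**Figure D2:**
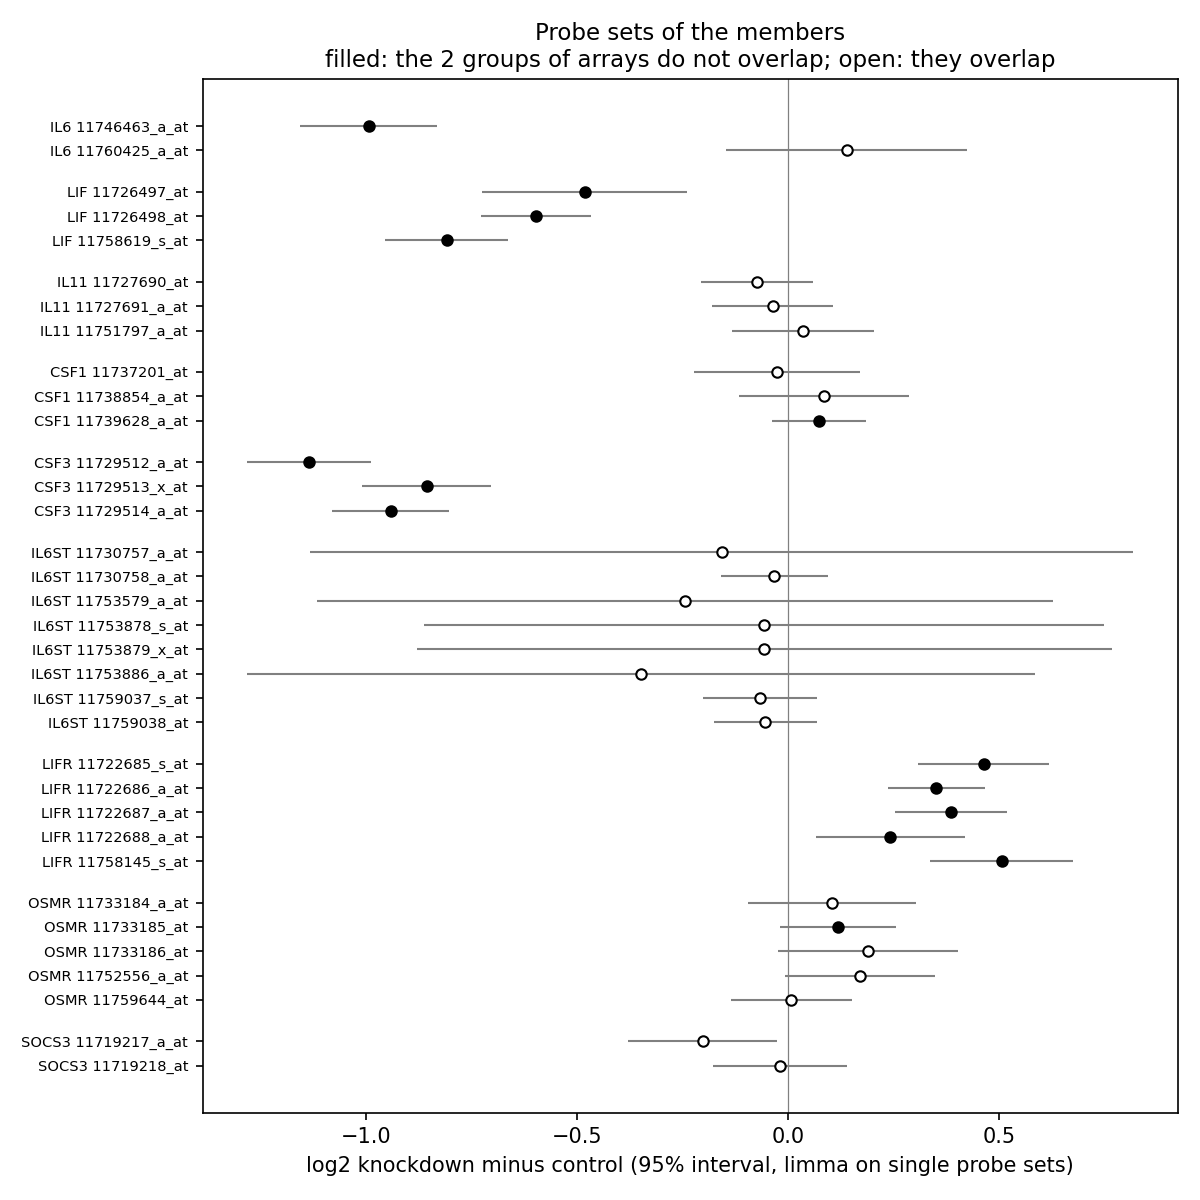
Log2 difference of knockdown minus control with its 95% limma interval (horizontal axis) for each of the 34 probe sets, grouped by gene. Filled points mark the 14 probe sets whose knockdown and control arrays do not overlap, as 29.5% of all probe sets do not. All CSF3 and LIF points lie left of 0 and all LIFR points right of it, the IL6 pair is split between -0.99 and 0.14, and 5 IL6ST probe sets have the widest intervals.

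Of the 3 receptor genes, LIFR was called higher and OSMR and IL6ST were not called. LIFR, whose product binds LIF and pairs with gp130, was at 0.20, 0.16 and 0.16 in the knockdown arrays and at -0.22, -0.19 and -0.24 in the control arrays. All knockdown arrays were above all control arrays. The difference was 0.39 ± 0.04 (log2, SE, 95% interval 0.30 to 0.48), 1.31-fold higher. All 5 LIFR probe sets were higher, from 0.24 to 0.51, with no overlap of the groups in any of them. Of these, 4 were called higher, where 4.30% of all probe sets were, and 11722688_a_at at 0.24 was not.

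OSMR encodes the oncostatin M receptor and is the measured gene next to LIFR on its higher coordinate side. It was at -0.04, 0.09 and 0.14 in the knockdown arrays and at -0.10, -0.04 and -0.03 in the control arrays. The groups overlapped through knockdown replicate 1, and the difference of 0.12 (95% interval -0.01 to 0.24) was not called. Its 5 probe sets were all on the positive side, from 0.01 to 0.19.

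IL6ST, the gene of gp130, scattered within the groups and not between them. Its gene average was -0.06, -0.61 and 0.19 in the knockdown arrays and 0.29, 0.08 and -0.47 in the control arrays. Knockdown replicate 2 and control replicate 3 were low, and knockdown replicate 3 and control replicate 1 were high. The difference of -0.13 (95% interval -0.67 to 0.41) spans 63.0 to 133% of control, an interval set by the probe sets that scattered.

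The scatter came from 5 of the 8 IL6ST probe sets. These had within-group SDs of 0.60 to 0.73 and held ranks 3 to 7 among the 49293 probe sets by that SD, where the median was 0.08. They followed each other across the arrays (lowest pairwise Pearson r = 0.94 over 6 arrays, a description of probe sets that share a gene). The other 3, 11730758_a_at, 11759037_s_at and 11759038_at, stayed between -0.11 and 0.13 on every array. Their differences were -0.03, -0.07 and -0.05, with 95% intervals of -0.16 to 0.09, -0.20 to 0.07 and -0.18 to 0.07 (log2). The mean of the 5 variable probe sets was -0.10, -0.97 and 0.34 in the knockdown arrays and 0.46, 0.10 and -0.78 in the control arrays. CSF3 did not scatter in this way, with -0.58 in knockdown replicate 2 and 0.46 in control replicate 3 beside group means of -0.50 and 0.48.

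**Figure D3:**
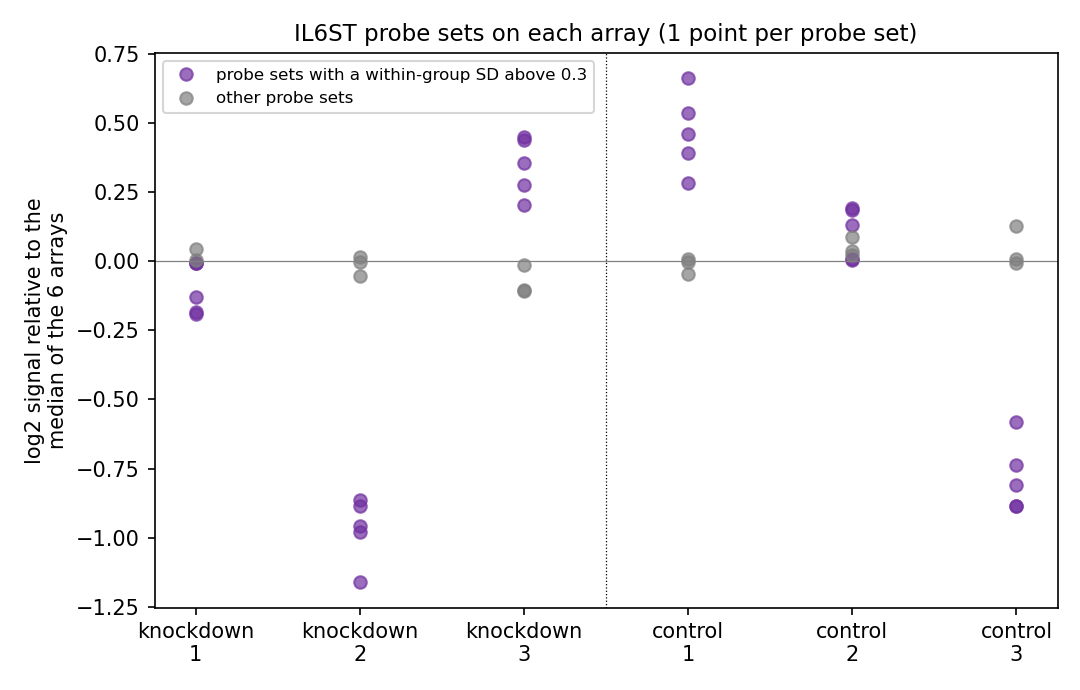
Log2 signal, as distance from the 6-array median (vertical axis), for the 8 IL6ST probe sets on each array (horizontal axis), with 1 point per probe set. The 5 probe sets with a within-group SD above 0.3 drop together in knockdown replicate 2 and control replicate 3, while the other 3 stay between -0.11 and 0.13 on all arrays.

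SOCS3, the inhibitor that STAT3 induces, was at 0.01, -0.10 and -0.04 in the knockdown arrays and at 0.07, 0.07 and 0.05 in the control arrays. The groups did not overlap, but the difference of -0.11 ± 0.04 (log2, SE, 95% interval -0.21 to -0.01) was not called. Its probe sets were at -0.20 and -0.02, and in each of them the groups overlapped.

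Other genes of the pathway were taken from 6 lists that hold none of the 10 genes, and 73 of their 78 genes were measured. These lists too were chosen with earlier results of these data known, so the adjusted p-values of their genes are a description. Of these, 4 were called lower and 7 higher, or 5.48% and 9.59%, where 4.63% and 6.36% of all genes were. The groups did not overlap for 24 of the 73, or 32.9%, near the 32.7% of all genes. The 73 genes had a median difference of -0.01 that equals the median of all genes to 2 decimals. None of the 8 other ligands measured was called. At an unadjusted limma p under 0.05, 1 of these ligands passed, where 4816 of all 18132 genes did. It was EBI3, a subunit of interleukin-27, which had the largest difference at 0.32 (limma adjusted p = 0.0983). The next was IL5 at 0.18 (adjusted p = 0.333). None of the 11 other receptor subunits was called either, 1 having an unadjusted p under 0.05, with IL11RA at 0.11 and IL31RA at 0.09 (adjusted p = 0.169 and 0.260). IL6R at 0.05 and CSF3R at 0.02, the genes of the receptors for IL6 and CSF3, were among these uncalled genes (adjusted p = 0.521 and 0.852).

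Downstream of the receptors 3 of 12 kinases, STATs and adaptors rose and 0 fell, with a list median of 0.06. That is 25% called higher and 0% lower, where 6.36% and 4.63% of all genes were. JAK1, the main kinase bound to gp130, was at 0.11, 0.18 and 0.12 in the knockdown arrays and at -0.17, -0.14 and -0.09 in the control arrays. It rose by 0.27 ± 0.04 (log2, SE, limma adjusted p = 0.00717), with 3 of 3 probe sets higher. The adaptor genes SHC1 and GAB1, which link such receptors to Ras and PI3-kinase signalling, rose by 0.22 and 0.17 (adjusted p = 0.0230 and 0.0295). STAT3 itself was at 0.05 and did not pass (adjusted p = 0.421).

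Among 14 other inhibitors of the pathway SOCS1, a relative of SOCS3, fell by 0.22 ± 0.06 (log2, SE, adjusted p = 0.0457). Neither of its probe sets was called on its own. PIAS3, which binds STAT3, rose by 0.18 ± 0.04 (adjusted p = 0.0348), with 4 of its 5 probe sets higher. Of the 14 genes, 7.14% were called lower and 7.14% higher, where 4.63% and 6.36% of all genes were, and the list median was 0.01.

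Of 16 genes known to be induced by STAT3, 3 fell and 2 rose, with a median of -0.05. These are 18.8% and 12.5% of the list, where 4.63% of all genes were called lower and 6.36% higher. NNMT, a nicotinamide methyltransferase, was at 0.29, 0.33 and 0.34 in the knockdown arrays and at -0.44, -0.32 and -0.29 in the control arrays. It rose by 0.67 ± 0.05 (log2, SE, adjusted p = 0.000370). CHI3L1, a secreted glycoprotein marker of mesenchymal glioma, rose by 0.46 ± 0.05 (adjusted p = 0.00151). CEBPB, a transcription factor that acts on many cytokine promoters, fell by 0.23 ± 0.04 (adjusted p = 0.0157). MCL1, a survival factor of the BCL2 family, and BCL6, a transcription repressor, fell by 0.20 and 0.16 (adjusted p = 0.0251 and 0.0459).

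Of 12 RNA-binding proteins that act on cytokine mRNAs 1 rose and 0 fell, with a median of -0.02. That is 8.33% called higher and 0% lower, where 6.36% and 4.63% of all genes were. RC3H2, a relative of Roquin that promotes decay of such mRNAs, rose by 0.29 ± 0.06 (log2, SE, adjusted p = 0.0249), with all 3 probe sets higher. ZC3H12A, a nuclease that cuts IL6 mRNA, was at -0.18 and did not pass (adjusted p = 0.104). Several of these calls lay close to the threshold, and fewer arrays gave fewer calls across all genes too, 395 to 590 lower and 553 to 812 higher with 1 array left out. Without 1 array, SOCS1, PIAS3 and BCL6 lost their call whichever of the 6 was left out (adjusted p 0.0656 to 0.116, 0.0619 to 0.110 and 0.0676 to 0.128). GAB1 did so except without control replicate 3 and MCL1 except without knockdown replicate 3 (adjusted p up to 0.0988 and 0.0802). The call of RC3H2 was lost when knockdown 1, knockdown 3, control 1 or control 3 was left out, that of SHC1 when knockdown 1, knockdown 3, control 1 or control 2 was, and that of CEBPB when control 1 or control 3 was (adjusted p up to 0.0844, 0.0821 and 0.0545). The sizes changed less: with 1 array left out the log2 difference was 0.15 to 0.19 for PIAS3, -0.18 to -0.14 for BCL6, -0.25 to -0.17 for SOCS1 and 0.23 to 0.35 for RC3H2.

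**Figure D4:**
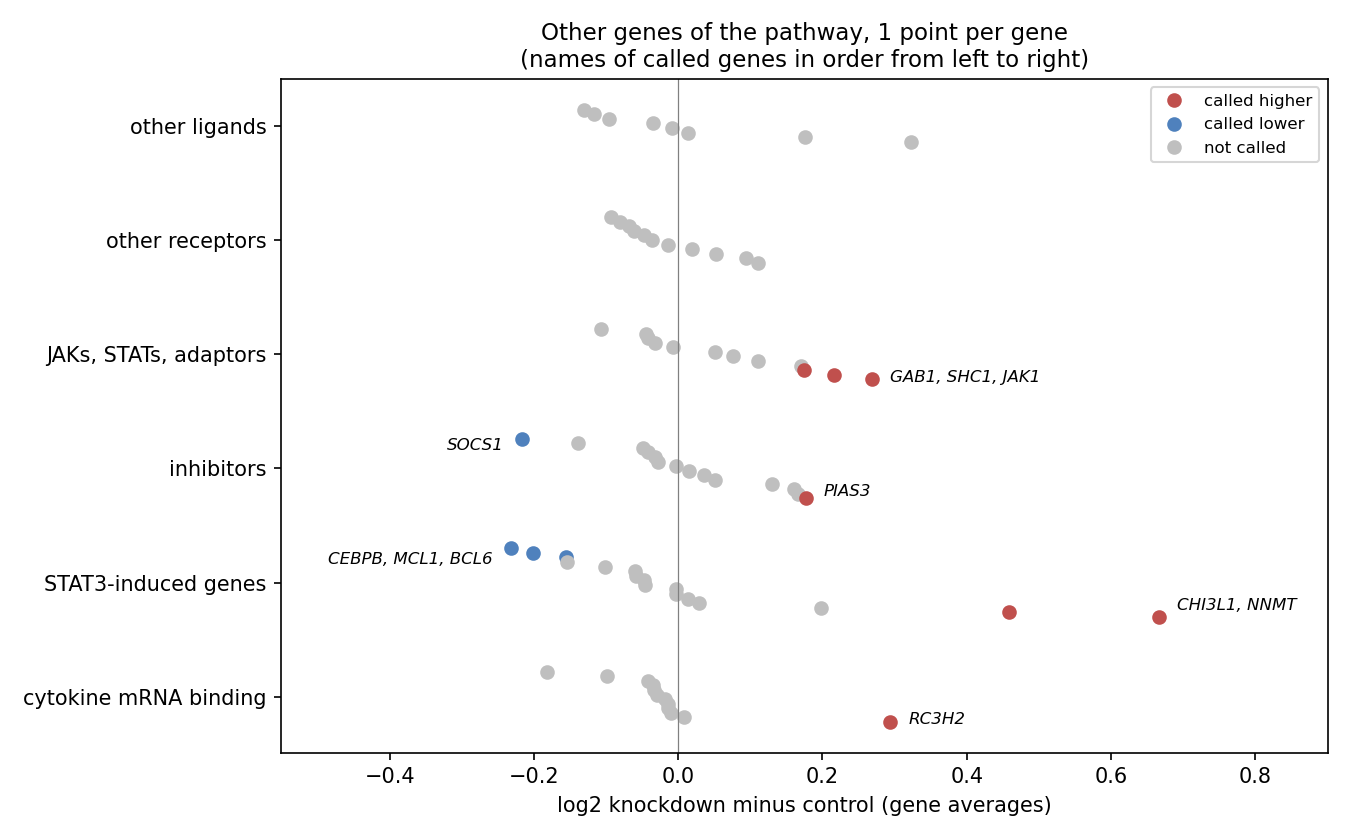
Log2 difference of knockdown minus control (horizontal axis) for the 73 measured genes of 6 pathway lists (rows), with 1 point per gene average, spread vertically within a row for legibility. The 7 genes called higher and the 4 called lower are coloured and named, none lies among the other ligands or receptors, and NNMT at 0.67 is farthest to the right.

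The genes next to the called members mostly did not move with them. The measured neighbours of CSF3 in the RefSeq gene order, PSMD3 and MED24, were at 0.02 and 0.00 (limma adjusted p = 0.859 and 0.998). Those of LIF, HORMAD2 and the related ligand gene OSM, were at 0.01 and -0.04 (adjusted p = 0.928 and 0.691), and EGFLAM beside LIFR was at 0.02 (adjusted p = 0.861). IL6 was the exception. HYCC1, on the higher coordinate side of IL6, was at -0.11, -0.23 and -0.12 in the knockdown arrays and at 0.09, 0.09 and 0.15 in the control arrays. HYCC1, which encodes hyccin, a protein needed for myelin formation, fell by 0.26 ± 0.05 (log2, SE, adjusted p = 0.0116). IL6-AS1, the antisense gene on the other side, was at -0.20 and did not pass (adjusted p = 0.240), with overlapping groups.

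By root mean square difference over the 6 arrays, the genes most like CSF3 were TMEM50A (0.0694), DUSP6, an ERK phosphatase (0.0695), and SLC25A13, a mitochondrial carrier (0.0841). Those most like LIF were FTSJ1, a tRNA methyltransferase (0.0402), CCND1, cyclin D1 (0.0415), and IER3, an immediate early response gene (0.0464). With 3 arrays against 3, this likeness mainly reflects a similar difference between the groups.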

How the data were processed

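Per the submitters' processing notes the authors made the deposited values with RMA, which corrects background, normalizes arrays together and summarises each probe set on the log2 scale; the version, the log base and any later step are not given in the sources used here. In the deposited table every probe set had a median of 0 over its 6 arrays (largest departure 4.85e-07), so log2 values are differences with no level, and filters on dim probe sets were not possible. The medians of the arrays ran from -0.00238 to 0.00399, and the values were used without further normalization.

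After 102 control probe sets were left out, 49293 remained, of which 44988 had 1 gene symbol, 1832 several and 2473 none. Single-symbol probe sets were averaged per gene. A linear model with moderated variances (limma 3.58.1, R 4.3.3), comparing 3 with 3 arrays without covariates and two-sided, was fitted to the 18132 genes and, separately, to the 49293 probe sets, with Benjamini-Hochberg adjustment over each table; intervals are 95%. The fit was run on simulated data with independent noise and known added differences. Such data hold no shared array effects, so the run checks the code and not the calls on these arrays. The members and all lists were chosen with earlier results of these data known. Named genes were PCGF1, the members, called genes of each pathway list or the 2 with the largest difference where none was called, neighbours of called members, and the 3 genes closest to CSF3 and to LIF; IL6R, CSF3R, STAT3 and ZC3H12A were named after their values were seen. The number of arrays limits the precision. Alternatives are given in the closing section.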

Additional observations from a re-analysis of the deposited data

How the results depend on the processing

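The calls of CSF3, LIF and IL6 (3 lower) and of LIFR (1 higher) held under all 14 alternatives: only the most variable probe set per gene, leaving out _s_at and _x_at probe sets, quantile normalization, median centring, array weights, robust eBayes, the replicate block, each array left out, and, chosen after seeing the data, leaving out the 2 arrays lowest for IL6ST. Log2 differences ranged from -1.14 to -0.94 for CSF3, -0.81 to -0.54 for LIF, -0.99 to -0.40 for IL6 and 0.33 to 0.51 for LIFR. The most variable probe set was picked by its SD over all 6 arrays, group difference included, so that alternative favours these calls and does not test them. For IL6 it kept 11746463_a_at. Leaving out _s_at and _x_at probe sets did not change IL6, whose probe sets are both _a_at. No alternative used the uncalled IL6 probe set 11760425_a_at alone.

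Of the uncalled members, IL11 was at 0.0361 with its most variable probe set and between -0.0488 and 0.0189 with an array left out. IL6ST was at 0.0134 after quantile normalization and between -0.345 and 0.0979 with an array left out. Without the 2 arrays lowest for IL6ST, 0 member probe sets were called higher, with fewer samples in the fit.

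Pathway genes called lower numbered 1 with the most variable probe sets, 1 without _s_at and _x_at probe sets, 2 with array weights, 1 with the replicate block, 0 without the 2 arrays and 0 to 2 with an array left out. Those called higher numbered 4 with the most variable probe sets, 4 with the replicate block, 2 without the 2 arrays and 3 to 5 with an array left out. CHI3L1 and NNMT were called under all 14 alternatives. HYCC1 was not called without the 2 arrays (limma adjusted p = 0.0964, with 0.00948 to 0.0964 over the alternatives).

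Of the uncalled neighbours, MED24 was at -0.301 with its most variable probe set, -0.122 without _s_at and _x_at probe sets and -0.00132 after quantile normalization. Without the 2 arrays, HORMAD2 was at -0.0584 and EGFLAM at -0.0512. With an array left out, HORMAD2 ranged from -0.0587 to 0.0858, OSM from -0.0710 to 0.00274, PSMD3 from -0.0261 to 0.0568, MED24 from -0.0191 to 0.0170 and EGFLAM from -0.0490 to 0.0738. The cause was not tested.

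Genes called over the whole table, 840 lower and 1154 higher, numbered 440 and 596 with the replicate block, 181 and 283 without the 2 arrays, 395 to 590 and 553 to 812 with an array left out, and 569 and 905 with the most variable probe sets. Same-numbered arrays of the groups did not deviate together (r = -0.0420, -0.0511 and 0.0116), so the numbers were not taken as pairs. Signal over background is unknown for every probe set.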

Other observations

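The array pattern of the variable IL6ST probe sets was looked for in the rest of the table after it had been seen. Of the 1465 probe sets whose values ranged over more than 0.6 across the arrays, 4 outside IL6ST correlated with the mean IL6ST profile at r above 0.9 over the 6 arrays. They belong to YAP1 (r = 0.96), CIP2A (r = 0.96), MAX (r = 0.96) and NANOS2 (r = 0.90). How many of the 1465 would pass by chance over 6 arrays was not tested. The YAP1 probe set was at -0.07, -0.68 and 0.31 in the knockdown arrays and at 0.59, 0.07 and -0.28 in the control arrays, so it was lowest on the same arrays as IL6ST. The 2 probe sets with a larger within-group SD than those of IL6ST belong to HIRA (0.89) and HSPD1 (0.77).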
